A study of Mus musculus with 12 samples.

Results

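The miR-15, miR-16, miR-195 and miR-497 family is a group of vertebrate miRNAs that carry the same seed, the stretch at bases 2 to 8 of the mature strand that pairs with target mRNAs. Its members were taken by name from the table of mature miRNAs: both arms of miR-15a, miR-15b and miR-195a and the 5p arms of miR-16 and miR-497a, which are 8 of 1652 names. All 8 were in the table and all 8 passed the filter on low values. Kidneys of untreated wild-type (WT) mice were compared at 2 ages, day 0 and day 8, by small RNA sequencing of 6 libraries per age, to find miRNAs that change in the neonatal period and could act on the mineralocorticoid receptor. The samples were whole kidneys, so every value averages over nephron, stromal, vascular and blood cells. The labels name no strain, sex or litter, and they do not say whether each library stands for its own animal. A p-value here thus reflects the spread between libraries, which may be partly technical.

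A mature miRNA is loaded into Argonaute and lowers the translation and stability of mRNAs that pair with its seed. The miR-15 family is best known as a brake on the cell cycle: described targets in human and mouse cells include the mRNAs of cyclin D1, cyclin E1, Cdk6, Wee1, Chek1 and Bcl2. The locus of miR-15a and miR-16-1 is deleted in many human chronic lymphocytic leukaemias, and in mouse heart the rise of miR-195 after birth has been linked to the exit of cardiomyocytes from the cell cycle. In mouse kidney, the days after birth are those in which the last nephron progenitors are used up and the nephrons already formed elongate and mature.

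The mature sequences, from RefSeq on GRCm38.p6, are shown because the seed joins the 5p arms and the bases after it tell them apart. They run 5′ to 3′ and capitals mark bases 2 to 8. The last 2 lines are the 3p arms of miR-16, shown because they, unlike the 5p arm, differ between the genes that make miR-16.
miR-15a-5p: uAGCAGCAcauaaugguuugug
miR-15b-5p: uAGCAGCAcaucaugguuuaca
miR-16-5p: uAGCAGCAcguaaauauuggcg
miR-195a-5p: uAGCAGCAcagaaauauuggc
miR-497a-5p: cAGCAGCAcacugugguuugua
miR-16-1-3p: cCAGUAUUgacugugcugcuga
miR-16-2-3p: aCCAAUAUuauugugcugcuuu

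The 5 member 5p arms had 1 seed in common, AGCAGCA. Past the seed, miR-16-5p was closest to miR-195a-5p, while miR-15a-5p, miR-15b-5p and miR-497a-5p were each closer to one another than to these. Over the 21 bases of miR-195a-5p, miR-16-5p differed from it at 2 positions, G10A and U11G, counted from 1 at the 5′ end of miR-16-5p with the miR-16-5p base first. Of 22 bases, miR-15a-5p differed from miR-15b-5p at 4 and from miR-497a-5p at 5, and miR-15b-5p differed from miR-497a-5p at 6. miR-16-5p differed from miR-497a-5p at 11. The pair closest in sequence, miR-16-5p and miR-195a-5p, was therefore the pair most exposed to reads being assigned to the wrong name, and how mismatches were treated is not stated. The 3p arms do not carry this seed.

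The members come from 3 loci (GENCODE M21 annotation of GRCm38). The hairpin Mir15a lies at chr14:61632027-61632110 on the minus strand, within an intron of Dleu2, a long non-coding gene. Its neighbour Mir16-1, at chr14:61631880-61631972, is 54 bases away and overlaps an annotated Dleu2 exon. Mir15b at chr3:69009772-69009835 and Mir16-2 at chr3:69009902-69009996, 66 bases apart on the plus strand, lie in an intron of Smc4, which encodes a condensin subunit used in mitotic chromosome folding. Mir497 at chr11:70234717-70234800 and Mir195a at chr11:70235042-70235135, 241 bases apart on the plus strand, overlap no other annotated gene on their strand, and their nearest annotated neighbours are Bcl6b and 0610010K14Rik. Mature miR-16-5p is the same molecule from chromosome 14 and chromosome 3, so its reads cannot be divided between these loci. Of the 3 loci, chromosome 11 is the one where each hairpin gives a 5p arm found at no other member locus.

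At both ages the family was led by a single molecule. Levels are in CPM, the reads of a miRNA per 1000000 miRNA reads in the library, and a difference is thus one of share, not of molecules in a cell. In whole tissue, fewer cells of a type and less RNA per cell cannot be told apart. miR-16-5p was the miRNA ranked 2 of all names in mean CPM at both ages, with 284963 to 836772 reads per library. The 5 member 5p arms together held 8.61 ± 0.302% of all miRNA reads at day 0 (SD, n = 6) and 7.33 ± 0.492% at day 8 (SD, n = 6), with no overlap. Of that sum, miR-16-5p took 93.2 ± 0.786% at day 0 and 91.5 ± 0.949% at day 8 (SD, n = 6 each). The other 4 arms were thus a minor share of the family's reads, and it was among them that the age difference was widest.

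At day 0 the order of mean CPM was miR-16-5p, miR-15b-5p, miR-15a-5p, miR-497a-5p, miR-195a-5p, miR-15b-3p, miR-15a-3p and miR-195a-3p. At day 8 the order was the same apart from the last 2 names, which changed places. Within each library at both ages, miR-16-5p exceeded miR-15b-5p, miR-15b-5p exceeded miR-15a-5p, and miR-15a-5p exceeded miR-497a-5p, with no overlap of their ranges. Neighbours whose ranges overlapped were miR-497a-5p and miR-195a-5p at both ages, miR-195a-5p and miR-15b-3p at day 0, and the 2 lowest 3p arms at both ages. Levels of different miRNAs also reflect how well each sequence is captured in a library, which was not measured here.

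**Figure D1:**
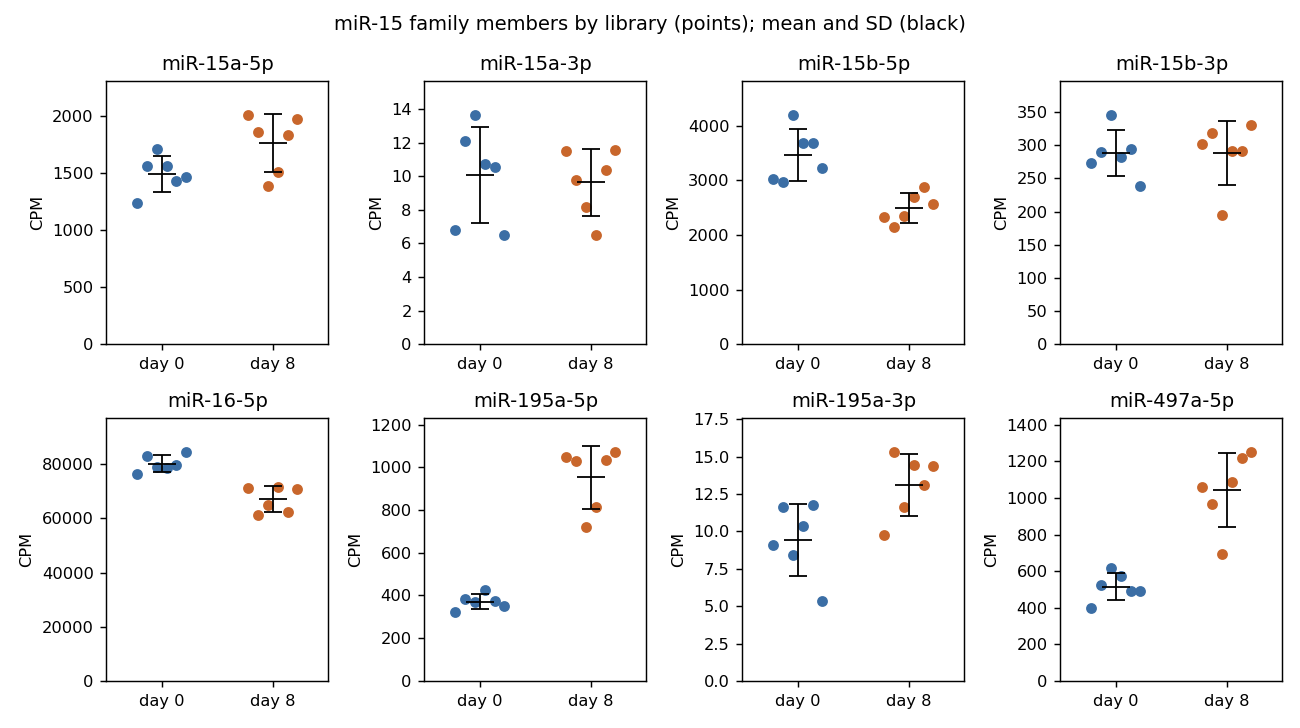
CPM of the 8 members in each of the 12 libraries on linear axes that start at 0, day 0 and day 8 side by side, 1 point per library, with the mean and SD of each age in black. The ages do not overlap for miR-16-5p, miR-15b-5p, miR-195a-5p and miR-497a-5p, and overlap for the other 4 members.

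Of the 8 members, 3 were higher at day 8 (miR-195a-5p, miR-497a-5p and miR-195a-3p), 2 were lower (miR-16-5p and miR-15b-5p), and miR-15a-5p, miR-15a-3p and miR-15b-3p did not pass the test. Calls are from limma on log2(CPM + 1) with a Benjamini-Hochberg adjusted p under 0.05 over 564 names. Over all 564 names, 64.7% were called, 16.5% as higher and 48.2% as lower. The ages did not overlap in 4 of the 8 members, 2 higher and 2 lower at day 8, against 45.9% of all names (10.8% higher and 35.1% lower), so the total numbers of called and of separated members were near those of all names. The median log2 change was 0.11 over the members and -0.34 over all names tested. Because the typical miRNA lost share, the scaling decides the sign of small changes. With TMM factors (a scaling that sets the typical name to no change), 5 members were called higher and 0 lower, against 30.3% and 34.2% of all names (64.5% in either direction). With upper quartile factors 7 were called higher and 0 lower, against 37.8% and 27.8% (65.6% in either direction).

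The clearest rise was at the chromosome 11 locus. In CPM, miR-195a-5p had a lowest, median and highest value of 322, 371 and 426 at day 0 and 721, 1032 and 1071 at day 8. Every day 8 library lay above every day 0 library. The mean went from 371 ± 34.5 to 953 ± 148 CPM (SD, n = 6 each), 2.57 times as high, with a log2 change of 1.35 (SE 0.112; 95% interval 1.11 to 1.59; limma adjusted p = 1.1e-07; two-sided exact permutation p = 0.00216, the smallest these 2 groups allow). Its rank among all names moved from 134 to 88. The rise held under each scaling, at 1.74 with TMM and 1.92 with upper quartile factors.

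miR-497a-5p, made from the neighbouring hairpin, had a lowest, median and highest CPM of 398, 509 and 615 at day 0 and 693, 1071 and 1250.5 at day 8. Again the ages did not overlap. Its mean went from 516 ± 75.2 to 1045 ± 202 CPM (SD, n = 6 each), 2.03 times as high, a log2 change of 1.01 (SE 0.143; 95% interval 0.70 to 1.31; limma adjusted p = 2.1e-05; exact permutation p = 0.00216). Day 8 replicate 3, the shallowest day 8 library, had the lowest value of its age for both 5p arms, and without it the log2 changes were 1.42 for miR-195a-5p and 1.12 for miR-497a-5p. Summed, the chromosome 11 5p arms went from 887 ± 103 CPM (719.9 to 998) to 1998 ± 326 CPM (1414 to 2321; SD, n = 6 each). These are guide strands with targets shared through the seed with miR-16-5p, which was still far more abundant.

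The rare arms of the same locus rested on few reads. miR-195a-3p, the minor strand of the miR-195a hairpin, had a lowest, median and highest CPM of 5.34, 9.74 and 11.7 at day 0 and 9.75, 13.7 and 15.3 at day 8, from 18 to 169 reads per library. The ranges overlapped, and the mean went from 9.44 ± 2.41 to 13.1 ± 2.07 CPM (SD, n = 6 each), a log2 change of 0.46 (SE 0.175; limma adjusted p = 0.0330; exact permutation p = 0.0216). The limma call was lost without day 0 replicate 1, 3 or 6 and without day 8 replicate 2, 4, 5 or 6. The log2 changes were then 0.32 to 0.45 (limma adjusted p up to 0.0672), while the exact test stayed under 0.05 in each. With TMM factors the log2 change of miR-195a-3p was 0.81 (limma adjusted p = 0.00131) and with upper quartile factors 0.98 (0.000447). miR-497a-3p, which is no member and did not pass the filter, had 1 to 3 reads per library at day 0 (0.126 to 0.332 CPM) and 7 to 17 at day 8 (0.756 to 1.59 CPM). Every day 8 library was above every day 0 library, and at so few reads no fold and no test are given. On the opposite strand, Mir497b overlaps Mir497, and miR-497b had 4 to 21 reads per library. Its CPM went from 1.97 ± 0.388 to 0.810 ± 0.148 (SD, n = 6 each). It passed the filter on low values only through day 0, where it is high, so no test is given, and whether the counting used strand is not stated.

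miR-15b-5p, from chromosome 3, and miR-16-5p, from chromosomes 3 and 14 together, lost share. For miR-15b-5p the lowest, median and highest CPM were 2979, 3448 and 4191 at day 0 and 2146, 2462 and 2879 at day 8. The ages did not overlap. The mean fell from 3462 ± 471 to 2498 ± 269.7 CPM (SD, n = 6 each), 1.39 times as high at day 0 as at day 8, a log2 change of -0.47 (SE 0.0999; 95% interval -0.68 to -0.25; limma adjusted p = 0.000822; exact permutation p = 0.00216). That fall was close to the shift of the typical name, and with TMM factors the change was -0.08 (adjusted p = 0.491) and with upper quartile factors 0.10 (adjusted p = 0.355).

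miR-16-5p, the most abundant member, had a lowest, median and highest CPM of 76339, 79390.2 and 84503 at day 0 and 61351, 68078 and 71619.8 at day 8, again with no overlap. Its drop was 1.20-fold in mean CPM, with a log2 change of -0.26 (SE 0.0546; 95% interval -0.38 to -0.14; limma adjusted p = 0.000709; exact permutation p = 0.00216). The sign turned with the scaling, to 0.13 with TMM factors (adjusted p = 0.101) and 0.31 with upper quartile factors (adjusted p = 0.00257). For this molecule only the share of the library can therefore be stated.

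miR-15b-3p, the passenger arm of the same hairpin as miR-15b-5p, did not share its fall. Its lowest, median and highest CPM were 238, 287 and 345 at day 0 and 195.1, 297 and 330.1 at day 8. The ranges overlapped almost fully, and the means were 288 ± 34.7 and 288 ± 48.1 CPM (SD, n = 6 each), with a log2 change of -0.01 (95% interval -0.29 to 0.27; limma adjusted p = 0.952). It was 0.38 with TMM factors (adjusted p = 0.0248) and 0.56 with upper quartile factors (adjusted p = 0.00475).

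On chromosome 14, miR-15a-5p did not fall with its close relative miR-15b-5p. Its lowest, median and highest CPM were 1240.2, 1512 and 1706 at day 0 and 1389, 1843 and 2003 at day 8. The ranges overlapped and most day 8 libraries were in the upper part. The means were 1493 ± 157 and 1759 ± 252 CPM (SD, n = 6 each), with a log2 change of 0.23 (SE 0.107; 95% interval 0.00 to 0.46; limma adjusted p = 0.0738; exact permutation p = 0.0584). It passed the test when day 0 replicate 3 was left out (0.27, limma adjusted p = 0.0492), and likewise without day 8 replicate 3 (0.30, 0.0149) or replicate 4 (0.27, 0.0416). TMM factors (0.62, adjusted p = 9.6e-05) and upper quartile factors (0.80, 4.7e-05) also took it past the threshold. miR-15a-3p, its rare partner arm, held 22 to 136 reads per library. Its CPM was 10.1 ± 2.85 at day 0 and 9.65 ± 1.99 at day 8 (SD, n = 6 each), with a log2 change of -0.03 and a 95% interval of -0.44 to 0.38 (limma adjusted p = 0.880).

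**Figure D2:**
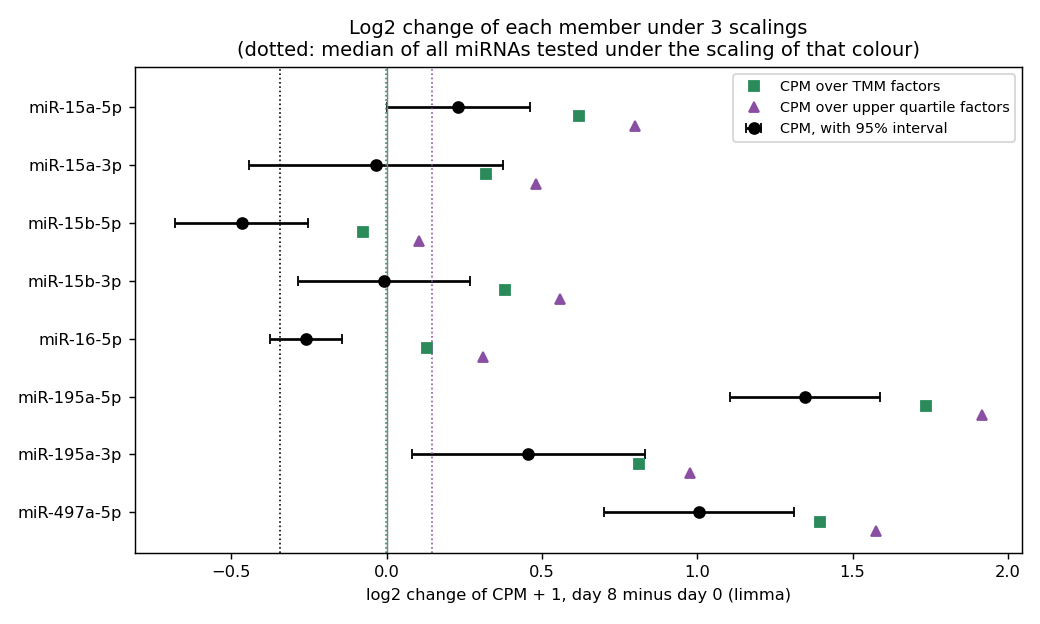
Log2 change of each member from day 0 to day 8 under 3 scalings of the libraries, with the 95% interval for CPM and dotted lines at the median of all 564 names. miR-195a-5p, miR-195a-3p, miR-497a-5p and miR-15a-5p lie right of zero under each scaling. miR-16-5p, miR-15a-3p and miR-15b-3p cross it with TMM and upper quartile factors, and miR-15b-5p with upper quartile factors.

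The 3p arms of miR-16 are the reads that separate the genes behind miR-16-5p. In CPM, miR-16-1-3p (chromosome 14) was 10.2 ± 2.87 at day 0 and 9.50 ± 2.11 at day 8, with a log2 change of -0.08 (95% interval -0.46 to 0.30; limma adjusted p = 0.717). miR-16-2-3p (chromosome 3) was 8.02 ± 2.33 and 8.05 ± 2.29, with a log2 change of 0.01 (95% interval -0.43 to 0.46; limma adjusted p = 0.952; SD, n = 6 each). With upper quartile factors both were called higher, at 0.44 (adjusted p = 0.0441) for miR-16-1-3p and 0.52 (adjusted p = 0.0331) for miR-16-2-3p, and with TMM factors they were 0.27 (adjusted p = 0.181) and 0.36 (adjusted p = 0.127), so the sign of miR-16-1-3p turned. The log2 ratio of miR-16-2-3p to miR-16-1-3p within a library was -0.32 ± 0.248 at day 0 and -0.23 ± 0.348 at day 8 (SD, n = 6 each; difference 0.09; exact permutation p = 0.589). No shift between the miR-16 genes was detectable from these arms, which hold 32 to 124 reads per library and allow changes of the size of their intervals. A 3p arm need not follow its 5p arm between ages, as the arm balance of miR-15b and miR-195a given below shows. How much miR-16-5p each gene gives was thus not measured.

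A ratio of members within a library does not move with the library's scaling, so loci were compared through 8 such ratios, each tested with a two-sided exact permutation test and adjusted by Benjamini-Hochberg over the 8. The miR-195a-5p to miR-16-5p ratio rose the most of the ratios to miR-16-5p. Its log2 value had a lowest, median and highest of -7.91, -7.75 and -7.53 at day 0 and -6.50, -6.07 and -5.90 at day 8, with no overlap. The mean difference was 1.61 (exact p = 0.00216, adjusted 0.00433). In linear terms miR-16-5p was 218 times miR-195a-5p at day 0 and 72.1 times at day 8, as the mean of 6 libraries each. The log2 ratio of miR-497a-5p to miR-16-5p was -7.29 ± 0.212 at day 0 and -6.03 ± 0.298 at day 8 (SD, n = 6 each; difference 1.27; exact p = 0.00216, adjusted 0.00433), also with no overlap.

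Against the chromosome 3 arm the shift was as clear. The log2 ratio of miR-195a-5p to miR-15b-5p went from -3.21 ± 0.184 to -1.40 ± 0.284 (SD, n = 6 each; difference 1.81; exact p = 0.00216, adjusted 0.00433). This meant that miR-15b-5p was 9.36 times miR-195a-5p at day 0 (7.75 to 11.3) and 2.68 times at day 8 (2.09 to 3.33). These ratios do not change with the scaling. The ratio of miR-497a-5p to miR-15b-5p was not tested.

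The arms miR-15a-5p and miR-15b-5p, which differ at 4 bases past the seed and sit on different chromosomes, drew together. miR-15b-5p was 2.32 ± 0.237 times miR-15a-5p at day 0 (lowest 1.91, median 2.40, highest 2.58) and 1.45 ± 0.275 times at day 8 (lowest 1.16, median 1.44, highest 1.79; SD, n = 6 each). The ages did not overlap, and the log2 difference was -0.70 (exact p = 0.00216, adjusted 0.00433). Set against miR-16-5p, miR-15a-5p gained by 0.49 in log2 ratio, from -5.75 ± 0.145 to -5.26 ± 0.234 (SD, n = 6 each; exact p = 0.00649, adjusted 0.00866), with overlapping ranges. miR-15b-5p moved by -0.21 against miR-16-5p, from -4.54 ± 0.214 to -4.75 ± 0.169, which did not pass (exact p = 0.0823, adjusted 0.0940) except without day 8 replicate 5 (-0.27, adjusted exact p = 0.0322).

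The neighbours on chromosome 11 did not keep a constant ratio. miR-195a-5p was 0.726 ± 0.0688 times miR-497a-5p at day 0 and 0.925 ± 0.126 times at day 8 (SD, n = 6 each; log2 difference 0.34; exact p = 0.00649, adjusted 0.00866). miR-497a-5p was above miR-195a-5p in 6 of 6 libraries at day 0 and in 4 of 6 at day 8. The ranges of this ratio overlapped between the ages.

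**Figure D3:**
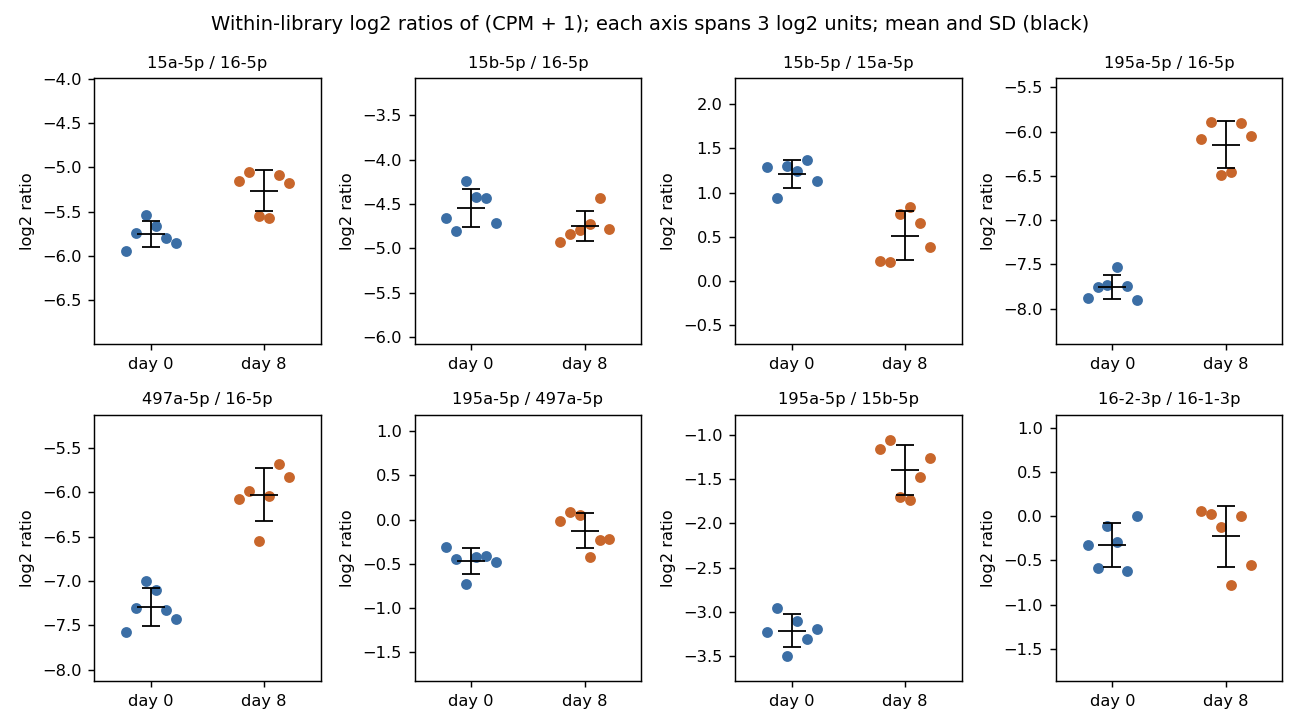
Within-library log2 ratios of family members in each of the 12 libraries, day 0 and day 8, 1 point per library, with the mean and SD of each age in black. The ratios of miR-195a-5p to miR-16-5p and to miR-15b-5p, of miR-497a-5p to miR-16-5p and of miR-15b-5p to miR-15a-5p separate the ages, while that of miR-16-2-3p to miR-16-1-3p does not.

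Leaving out miR-16-5p shows how the makeup of the remaining 5p pool moved. The summed CPM of the other 4 arms was 5841 ± 670.0 at day 0 and 6255 ± 664 at day 8 (SD, n = 6 each), with overlapping ranges. Within this pool miR-15b-5p held 59.2 ± 2.53% at day 0 (54.7 to 61.6%) and 40.1 ± 4.23% at day 8 (35.8 to 45.6%). The chromosome 11 arms together held 15.2 ± 0.975% (14.3 to 16.7%) and 31.8 ± 2.32% (27.4 to 33.8%), and miR-15a-5p held 25.6 ± 1.69% and 28.1 ± 2.58% (SD, n = 6 each). The shares of miR-15b-5p and of the chromosome 11 arms did not overlap between the ages, while those of miR-15a-5p did.

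**Figure D4:**
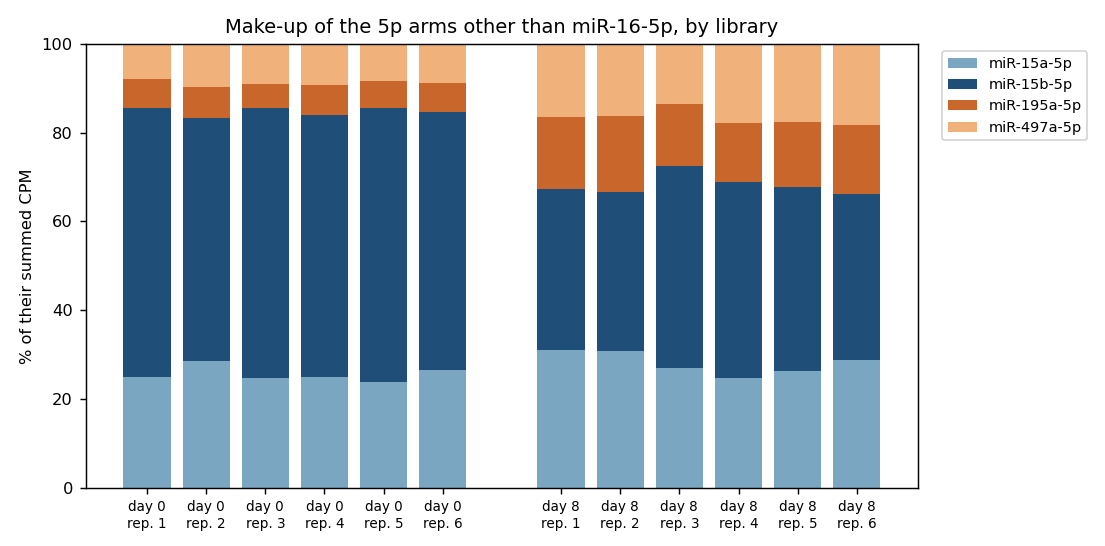
Share in percent of the summed CPM of the 4 member 5p arms other than miR-16-5p, in each of the 12 libraries. miR-15b-5p holds 54.7 to 61.6% of the pool in the day 0 libraries and 35.8 to 45.6% in the day 8 libraries, and the shares of miR-195a-5p and miR-497a-5p are higher in every day 8 library.

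A hairpin gives a guide arm and a passenger arm, and the balance between them was tested with limma over 163 hairpins, on log2 of 5p over 3p CPM, each plus 1. Over all of them 58.3% were called, 29.4% with a gain of the 5p arm and 28.8% with a gain of the 3p arm. Of the 3 member hairpins with both arms, miR-195a shifted to the 5p arm, miR-15b shifted to the 3p arm and miR-15a did not pass. For miR-195a the 5p arm was 41.8 ± 12.7 times the 3p arm at day 0 (lowest 31.7, median 38.2, highest 65.8) and 74.5 ± 18.2 times at day 8 (lowest 56.3, median 71.0, highest 108; SD, n = 6 each). The ranges overlapped, and all 6 day 8 libraries were above the day 0 median (log2 difference 0.89, SE 0.180; limma adjusted p = 0.000613). The day 0 values rest on the low read numbers of miR-195a-3p given above.

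For miR-15b, which has at least 804 reads per library in each arm, the 5p arm was 12.1 ± 1.22 times the 3p arm at day 0 (lowest 10.3, median 12.3, highest 13.5) and 8.91 ± 1.91 times at day 8 (lowest 6.74, median 8.54, highest 12.1; SD, n = 6 each). The ranges overlapped, and all 6 day 8 libraries were below the day 0 median (log2 difference -0.46, SE 0.149; limma adjusted p = 0.0161). For miR-15a the log2 ratio was 7.11 ± 0.291 at day 0 and 7.38 ± 0.145 at day 8 (SD, n = 6 each; difference 0.26; 95% interval -0.04 to 0.57; limma adjusted p = 0.117), and the test was passed without day 0 replicate 6 (0.36, limma adjusted p = 0.0315).

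**Figure D5:**
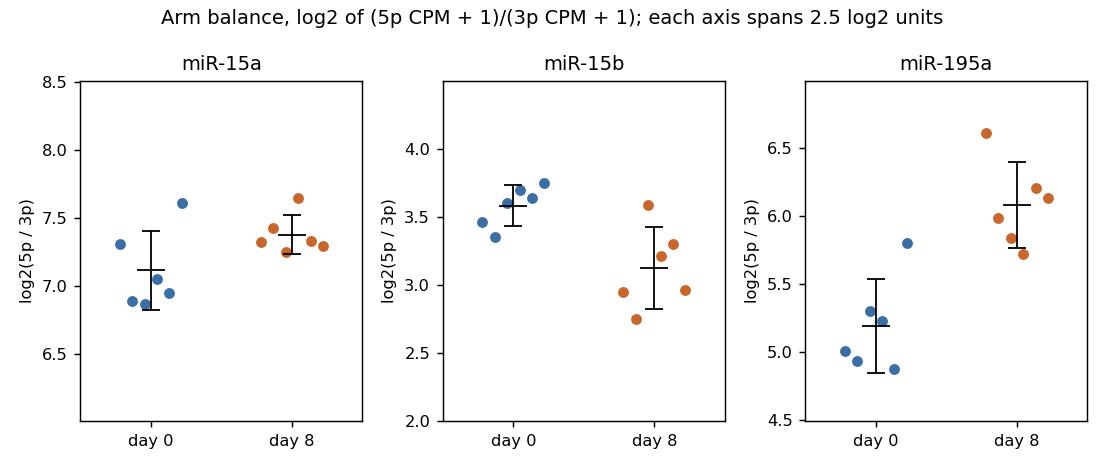
Log2 ratio of the 5p to the 3p arm of miR-15a, miR-15b and miR-195a in each of the 12 libraries, day 0 and day 8, 1 point per library, with the mean and SD of each age in black. The ratio of miR-195a is higher and that of miR-15b lower at day 8, with overlapping ranges, and the change of miR-15a did not pass the test.

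Outside the members, the RefSeq table held 2 other names in the deposited table with the same bases 2 to 8. miR-322-5p, the mouse counterpart of human miR-424 from an X-linked cluster, had 16612 ± 1471 CPM at day 0 and 17108 ± 1469 CPM at day 8 (SD, n = 6 each; log2 change 0.04; limma adjusted p = 0.643). It was called higher with TMM factors (0.43, adjusted p = 0.000289) and with upper quartile factors (0.61, adjusted p = 9.4e-05). The second, miR-6342, had 1 read in all 12 libraries together. By reads, miR-322-5p was thus second to miR-16-5p among the names with this seed at both ages.

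For each member 5p arm, the names with the most similar pattern were found among 214 other names with a mean CPM of at least 100, by the root mean square difference of log2(CPM + 1) over the 12 libraries after each name was centred on its mean. miR-195a-5p was nearest to miR-101a-3p (0.192), miR-30a-5p (0.199) and miR-30e-5p (0.213), with miR-497a-5p in place 5 (0.234). miR-497a-5p was nearest to miR-195a-5p itself (0.234), then miR-338-3p (0.242) and miR-101a-3p (0.260). The locus partners were therefore among each other's closest patterns, a description over 12 libraries of 2 ages and unequal depth.

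The nearest names to miR-16-5p were miR-128-3p (0.127), let-7a-5p (0.129) and miR-24-3p (0.134). Those nearest to miR-15b-5p were miR-128-3p (0.149), let-7j (0.149) and let-7d-5p (0.170). miR-15b-5p and miR-16-5p lay 0.204 apart, and miR-16-5p was in place 15 from miR-15b-5p. The nearest names to miR-15a-5p were miR-143-5p (0.0906), miR-141-3p (0.0978) and miR-218-5p (0.114). Its chromosome 14 partner molecule miR-16-5p was only in place 55, and miR-15b-5p in place 88.

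Other miRNAs with known cell cycle roles were read from the same fit. Of 12 miRNAs linked to proliferation, all from the miR-17-92, miR-106a and miR-106b clusters, 7 fell and 0 rose, with a median log2 change of -0.63 against -0.34 over all names, of which 48.2% fell and 16.5% rose. With TMM factors 2 rose and 6 fell, against 30.3% and 34.2% of all names. With upper quartile factors 3 rose and 6 fell, against 37.8% and 27.8%. miR-20a-5p, which acts on cell cycle inhibitors, fell from 16255 ± 1306 to 5618 ± 775 CPM (SD, n = 6 each; log2 change -1.54; limma adjusted p = 5.3e-09). Of 12 miRNAs known to restrain growth, 3 rose and 4 fell, with a median of -0.07, beside the same shares of all names. With TMM factors 6 of them rose and 3 fell, and with upper quartile factors 9 rose and 1 fell. Among these 12, miR-34a-5p rose from 836 ± 56.9 to 1353 ± 238 CPM (SD, n = 6 each; log2 change 0.68; limma adjusted p = 9.6e-05). The other miR-34 and miR-449 names listed did not rise. miR-34c-5p (-0.76; limma adjusted p = 1.7e-06) and miR-449a-5p (-0.76; 0.000185) fell, and miR-34b-5p did not pass (-0.17; 0.283). miR-503-5p, the cluster partner of miR-322, fell from 2349 ± 219 to 971 ± 183 CPM (SD, n = 6 each; log2 change -1.29; limma adjusted p = 2.2e-07).

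The libraries held 7.10 ± 2.04 M miRNA reads at day 0 (M, 1000000; 3.37 to 9.05) and 9.53 ± 2.58 M at day 8 (5.16 to 11.8; SD, n = 6 each). The shallowest of each age, day 0 replicate 6 and day 8 replicate 3, stood at the edge of their group for several members: the first was lowest in the 3 member 3p arms and the second lowest in 4 members. Without both, 4 members were called higher, miR-15a-5p being the addition (0.29, limma adjusted p = 0.0277), and 2 lower. Over all names tested in that setting, 93 were called higher and 258 lower. The 6 kidney miRNAs, of which 4 rose and 2 fell, were abundant at both ages (77052 to 92035 summed CPM at day 0, 86876 to 107093 at day 8). Of 3 erythroid miRNAs measured, 0 passed in either direction, and their summed CPM was 332 to 970.0 at day 0 and 411 to 840.4 at day 8. Both endothelial miRNAs rose, from 106209 ± 5340 to 134765 ± 9833 summed CPM (SD, n = 6 each). Of 5 leukocyte miRNAs 2 rose and 1 fell (2307 to 4441 summed CPM at day 0, 2885 to 5399 at day 8), all 3 striated muscle miRNAs fell (484 to 1979.9 summed CPM at day 0, 402 to 496.9 at day 8) and liver miR-122-5p fell (478 to 3284 CPM at day 0, 15.2 to 330.4 at day 8). These counts stand beside 16.5% of all names higher and 48.2% lower. With TMM factors, 4 kidney miRNAs rose and 1 fell, 4 leukocyte miRNAs rose and 1 fell, and 2 striated muscle miRNAs fell. Of all names, 30.3% rose and 34.2% fell with that scaling. With upper quartile factors, 5 kidney miRNAs rose and 0 fell, and 1 erythroid miRNA rose. In that setting 4 leukocyte miRNAs rose and 1 fell, and 2 striated muscle miRNAs fell, against 37.8% of all names higher and 27.8% lower. None of the markers in the table was at 0. The part of these cell types in the changes of the members was not tested.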

How the data were processed

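Per the labels' protocols, NucleoSpin miRNA columns were used for RNA and the QIAseq miRNA Library Kit for sequencing libraries. The submitters' processing notes name FastQC. The sources used here do not give the aligner, genome build, miRBase release, use of molecular identifiers or strand. The authors deposited 1 table of 1652 mature names in CPM, each library summing to 1000000. Its values are whole multiples of 1 read (100.0% within 0.001 of a read), so reads were recovered. Limits from reads cover counting error only. All 12 columns were used. No library was a copy of another (lowest chi-square per degree of freedom within an age 29.6).

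Libraries were grouped by the age label and numbered 1 to 6 in series order. The main test was limma 3.58.1 in R 4.3.3, with its trended variance, on log2(CPM + 1). Names needed CPM values of 1 or more in 6 or more libraries (564 names), and p-values were adjusted by Benjamini-Hochberg at 0.05. Log2 changes give day 8 relative to day 0 and understate low names because of the pseudocount. Exact permutation tests (two-sided) were used for single CPM values and log2 ratios, and limma for the 5p to 3p balance of hairpins. Scripts were tested on simulated data. Alternatives were TMM and upper quartile factors, edgeR 4.0.16 and DESeq2 1.42.0 on the recovered reads (edgeR with TMM called 368 names), pseudocounts of 0.1 and 5, other filters and each library left out. Named miRNAs were all members, the other arms of their hairpins, names with the same seed and the 3 nearest patterns of each 5p arm. miR-497b and miR-322-3p were added after their values were seen, as were examples from lists. The members and lists were chosen with earlier results of these data known.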

Additional observations from a re-analysis of the deposited data

Results flagged for a closer look

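1 of 44 sets of 6 values checked held a library far from the others: for miR-15b-3p at day 8, replicate 3 had 195.1 CPM, while the nearest other library had 291, and that gap was 0.713 of the whole range of the age. Chance gives about 1 such flag in 20 sets. Replicate 3 is the shallowest day 8 library, and without it the log2 change of miR-15b-3p was 0.10 by limma. It also had the highest kidney sum (107093 CPM) and miR-122-5p (330.4 CPM) of its age. Its endothelial (120604 CPM) and striated muscle (402 CPM) sums were the lowest, while its erythroid and leukocyte sums were at neither end. The cause of its outlying value was not tested.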

How the results depend on the processing

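Scaling changed the most. The 93 names called higher became 171 with TMM factors, 213 with upper quartile factors, 173 with edgeR and TMM and 180 with DESeq2. The 272 called lower dropped as well, to 193 with TMM factors, 157 with upper quartile factors and 189 with DESeq2. With edgeR and TMM, 368 of 564 names were called, and those not among the 173 higher were lower. Members called higher numbered 5 with TMM factors, 7 with upper quartile factors, 5 with edgeR and TMM and 5 with DESeq2. Members called lower numbered 0 in each of these 4 settings. In the same order the limma or count-model log2 change became 0.32, 0.48, 0.32 and 0.36 for miR-15a-3p, 0.38, 0.56, 0.40 and 0.44 for miR-15b-3p, and 0.13, 0.31, 0.13 and 0.17 for miR-16-5p, each with its sign turned. It was 0.10 for miR-15b-5p with upper quartile factors. For miR-15b-3p it was 0.0024 with edgeR on total counts and 0.047 without day 0 replicate 6 and day 8 replicate 3. In the exact tests of mean CPM, the log2 fold with TMM and upper quartile factors was 0.63 and 0.82 for miR-15a-5p, 0.33 and 0.52 for miR-15a-3p, -0.080 and 0.10 for miR-15b-5p, 0.40 and 0.59 for miR-15b-3p, and 0.13 and 0.31 for miR-16-5p. Without both shallow libraries, an alternative chosen after seeing the data, it was 0.29 for miR-15a-5p and the arm ratio of miR-15a changed by 0.39. That arm change was 0.26 and passed with a pseudocount of 5. The 95 hairpins called became 45 at a mean CPM of at least 20, where fewer hairpins were tested. The call of miR-195a-3p was lost with no filter (limma adjusted p = 0.0766).

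With 1 library left out, the limma change ranged from -0.14 to 0.062 for miR-15a-3p, from -0.061 to 0.099 for miR-15b-3p, from 0.18 to 0.30 for miR-15a-5p and from 0.32 to 0.53 for miR-195a-3p. The log2 fold of mean CPM ranged from 0.19 to 0.30 for miR-15a-5p, from -0.16 to 0.047 for miR-15a-3p and from -0.046 to 0.093 for miR-15b-3p. The log2 ratio of miR-15b-5p to miR-16-5p ranged from -0.27 to -0.15 and the arm change of miR-15a from 0.21 to 0.36. miR-195a-5p and miR-497a-5p kept direction and call in all settings run. So did the arm change of miR-15b and the ratios other than that of miR-15b-5p to miR-16-5p. The arm change of miR-195a held in every setting that included this hairpin. It was not tested where each arm had to average 20 CPM or more. Its 3p arm averaged 9.44 CPM at day 0 and 13.1 CPM at day 8. The cause of the losses was not tested. No paired analysis was possible because replicate numbers follow series order and the labels carry none. Precision of the rare 3p arms is limited by 18 to 169 reads per library.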
